A study of Mus musculus with 12 samples.

Results

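Complement genes, 9 of the 31053 genes counted in the files, were followed through the stromal vascular fraction of mouse adipose tissue: the chains C1qa and C1qb, the proteases C1ra and C1s1, the convertase components C4b, C2, C3 and Cfb, and the inhibitor Serping1. They were picked by name as complement genes of stroma and macrophages after group differences in these libraries had been seen, so every call on them places the gene within a fit across all genes and is no independent evidence of its direction. The fraction, which is what collagenase II digestion leaves after the adipocytes float off, came from 300 mg of epididymal white adipose tissue (eWAT) or inguinal white adipose tissue (iWAT) of male mice aged 12 weeks and was profiled by droplet single-cell RNA sequencing at the 3' end of transcripts. WT-Veh were C57BL/6J mice given vehicle (methylcellulose). ob/ob-Veh were Lepob/Lepob mice, which lack functional leptin in every cell and become obese, given the same vehicle. ob/ob-Rosi were Lepob/Lepob mice given rosiglitazone, a PPARγ agonist, at 30 mg/kg by gavage in the morning and evening for 3 days. Each of the 3 groups had 2 libraries in each of the 2 depots, 12 in all, and no WT mice given rosiglitazone were among them.

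Complement is a cascade of plasma and tissue proteins that marks surfaces for uptake and recruits leukocytes. In the classical pathway C1q, built from the A, B and C chains, recognises a target and activates the proteases C1r and C1s, which cleave C4 and C2 to form a convertase that cleaves C3. Factor B, the product of Cfb, forms the C3 convertase of the alternative pathway, and C1 inhibitor, the product of Serping1, blocks C1r and C1s. Liver makes most of the plasma proteins, fibroblast-like cells of many tissues make them locally, and macrophages are the main source of C1q. C1ra and C1s1 are the mouse genes for C1r and C1s, and C4b is the mouse gene for C4.

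Several of the genes are neighbours. In GRCm38, on the minus strand of chromosome 17, C4b lies at chr17:34728380-34743882, Cfb at chr17:34856374-34862518 and C2 at chr17:34862604-34898265, so that 85 bases part Cfb from C2. C3 lies on the same strand at chr17:57203970-57228136 and Serping1 on the minus strand of chromosome 2 at chr2:84765387-84775444. C1qb (chr4:136880129-136886187) and C1qa (chr4:136895917-136898803) flank C1qc on the minus strand of chromosome 4, 9729 bases apart. C1ra (chr6:124512405-124523443, plus strand) and C1s1 (chr6:124530345-124542359, minus strand) are 6901 bases apart. The near copies C1rb and C1s2 held 93 and 300 unique molecular identifiers (UMIs, which count captured molecules) in all cells, against 75798 for C1ra and 168884 for C1s1. C4a, a near copy of C4b, had no row of its own among the counted genes, so whether its reads could enter C4b was not tested.

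Promoter windows of 300 bases (250 before to 50 after a RefSeq start, GRCm38.p6) were matched for C3, C1ra, C1s1 and C1qb. C2, C4b, Cfb, Serping1 and C1qa were not matched. The windows were searched on both strands for GGG and CC parted by any 5 bases (NF-kappa-B), TTGC and AA parted by any 2 (C/EBP), TTC and GAA parted by any 3 (GAS, the STAT element) and GAAA repeated after any 2 bases (ISRE core), which 50.8%, 10.8%, 8.30% and 3.44% of 32851 RefSeq promoters of that length hold. C3 is shown because it is the central component, and C1s1 and C1qb because they are the protease and the C1q chain whose changes are described most fully; each run reads 5' to 3' on the gene's strand with the match in capitals.
C3, NF-kappa-B letters on both strands from base -33, chr17:57228150-57228179, minus strand: gcgaaattttGGGCAGTCCCtggtgcagga
C3, NF-kappa-B letters from base -197, chr17:57228314-57228343, minus strand: aagtacaacaGGGACCAGCCcaggttcagc
C3, C/EBP letters from base -45, chr17:57228164-57228191, minus strand: ggaaactatgTTGCGAAAttttgggcag
C1s1, NF-kappa-B letters on the opposite strand, chr6:124542337-124542366, minus strand: ttcctgcaaaGGCCACTCCCtctggagctg
C1qb, NF-kappa-B letters from base -191, chr4:136886372-136886401, minus strand: cagccatctgGGGATAGTCCctaagaacag
The C3 window held 5 NF-kappa-B matches, of which those at -197 and -196 overlap on opposite strands and 2 are the single site at -33 read on either strand, plus 1 C/EBP match whose printed run overlaps the site at -33. C1qb held 2 overlapping NF-kappa-B matches on opposite strands, C1s1 the same single NF-kappa-B site from either of its 2 RefSeq starts plus 1 C/EBP match, at base -242 of the upstream start only, and C1ra 1 C/EBP and 1 GAS match and 0 NF-kappa-B matches. About as many promoters hold the NF-kappa-B letters as lack them, and a match is a description of letters, not a bound site.

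After filtering, the libraries held 6472 to 17500 cells and 19593940 to 66315901 UMIs, with a median of 1132 to 4961 UMIs per cell, and the 9 genes took 0.303% to 0.920% of the UMIs. The library labelled iWAT WT-Veh 1 stood apart, with 17063 cells, the lowest median of 1132 UMIs and 7548 cells of no named class. Predicted doublets made up 24.5% of it against 1.11% to 5.18% in the others. Its 133 progenitor-like cells were the fewest in iWAT. In eWAT progenitor-like cells numbered 179 and 123 in WT-Veh, 2056 and 799 in ob/ob-Veh and 185 and 58 in ob/ob-Rosi. Pairs of libraries shared 7 to 99 cell barcodes, at most 1.05% of the smaller library. The mutated Lep allele still gives mRNA, so Lep UMIs (4 to 277 per library) did not check the labels. Cells were clustered without the complement genes and clusters were named from marker lists: adipocyte progenitor cells (Pdgfra, Col1a1, Dcn) divided into progenitor-like (Pi16, Dpp4) and preadipocyte-like (Icam1, Cd36, Fabp4) cells, perivascular macrophages (PVM-like; Lyve1, Cd163, Mrc1), lipid-associated macrophages (LAM-like; Trem2, Cd9), mesothelial-like cells (Msln, Upk3b), T and natural killer cells (NKT-like) and others. All 10 listed stromal markers had UMIs in the stromal classes of every group. Median UMIs per cell in iWAT PVM-like cells were lowest in ob/ob-Veh, at 1627 and 1601 against 2714 to 4675 in the other libraries. So were those of iWAT progenitor-like cells, at 2929 and 2176.5 against 3824.5 to 5200. In eWAT progenitor-like cells ob/ob-Veh was deepest, at 7669 and 6239 against 2254 to 6035. In the other classes tested below ob/ob-Veh overlapped the other groups in depth. Where thinning cells to an equal depth ended a call, this is named below. Levels are given as CPM, the UMIs of a gene over all UMIs of the class in that library, scaled to 1000000, and they are compared between libraries and classes for 1 gene at a time, not between genes of unequal length.

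In eWAT the stromal members C3, C2, Cfb and C1ra were highest in mesothelial-like cells, whereas the C1q chains were highest in PVM-like cells of both depots. C3, whose cleavage every complement pathway shares, had a median level of 7507 CPM (range 6779.6 to 9875) over the 6 eWAT libraries in mesothelial-like cells, a range that did not overlap those of preadipocyte-like cells (2748 CPM (range 1472 to 4405)) or progenitor-like cells (2719 CPM (range 1252 to 4566)), which overlapped each other. In iWAT, where only 27 mesothelial-like cells were found, C3 was highest in progenitor-like cells at 3237 CPM (range 1799.8 to 4689), overlapping preadipocyte-like cells at 2028 CPM (range 1049.6 to 3359). C2, the serine protease of the classical convertase, was at 766 CPM (range 579 to 1119) in eWAT mesothelial-like cells and 47.9 CPM (range 38.6 to 90.7) in eWAT preadipocyte-like cells. In iWAT C2 was highest in preadipocyte-like cells at 132 CPM (range 64.3 to 539), overlapping progenitor-like cells at 10.9 CPM (range 5.80 to 75.6). Cfb was at 73.7 CPM (range 42.7 to 95.2) in eWAT mesothelial-like cells, against 9.84 CPM (range 7.11 to 12.1) in eWAT preadipocyte-like cells and 29.1 CPM (range 12.0 to 34.0) in iWAT preadipocyte-like cells. These orders are descriptions without a test, because cell classes of 1 library share that library.

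The C1 proteases and their inhibitor were stromal genes in both depots. C1ra stood at 504 CPM (range 355 to 608) in eWAT mesothelial-like cells and 309 CPM (range 219.7 to 351) in eWAT progenitor-like cells, and led in iWAT progenitor-like cells at 483 CPM (range 253 to 699). C1s1 was highest in eWAT progenitor-like cells at 911 CPM (range 631 to 1051) and in iWAT preadipocyte-like cells at 987 CPM (range 581 to 1728), in each depot overlapping the other stromal class. Serping1 led in eWAT preadipocyte-like cells at 2108 CPM (range 1783 to 2626) and in iWAT progenitor-like cells at 2980.0 CPM (range 1995 to 4517), again overlapping the next class. C4b differed from these in that PVM-like cells led, at 688 CPM (range 387 to 1284) in eWAT and 1309 CPM (range 766 to 1724) in iWAT, and in both depots that range overlapped preadipocyte-like cells. C1qa was at 6030.2 CPM (range 3953 to 7644) in eWAT PVM-like cells, overlapping LAM-like cells at 2892 CPM (range 2325 to 4188), and at 4914 CPM (range 3906 to 6717) in iWAT PVM-like cells, above LAM-like cells at 2574 CPM (range 1215 to 2671). C1qb was at 4988 CPM (range 2504 to 7321) in eWAT PVM-like cells and 3299 CPM (range 1723 to 6359.6) in iWAT PVM-like cells, and in both depots overlapped LAM-like cells.

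**Figure D1:**
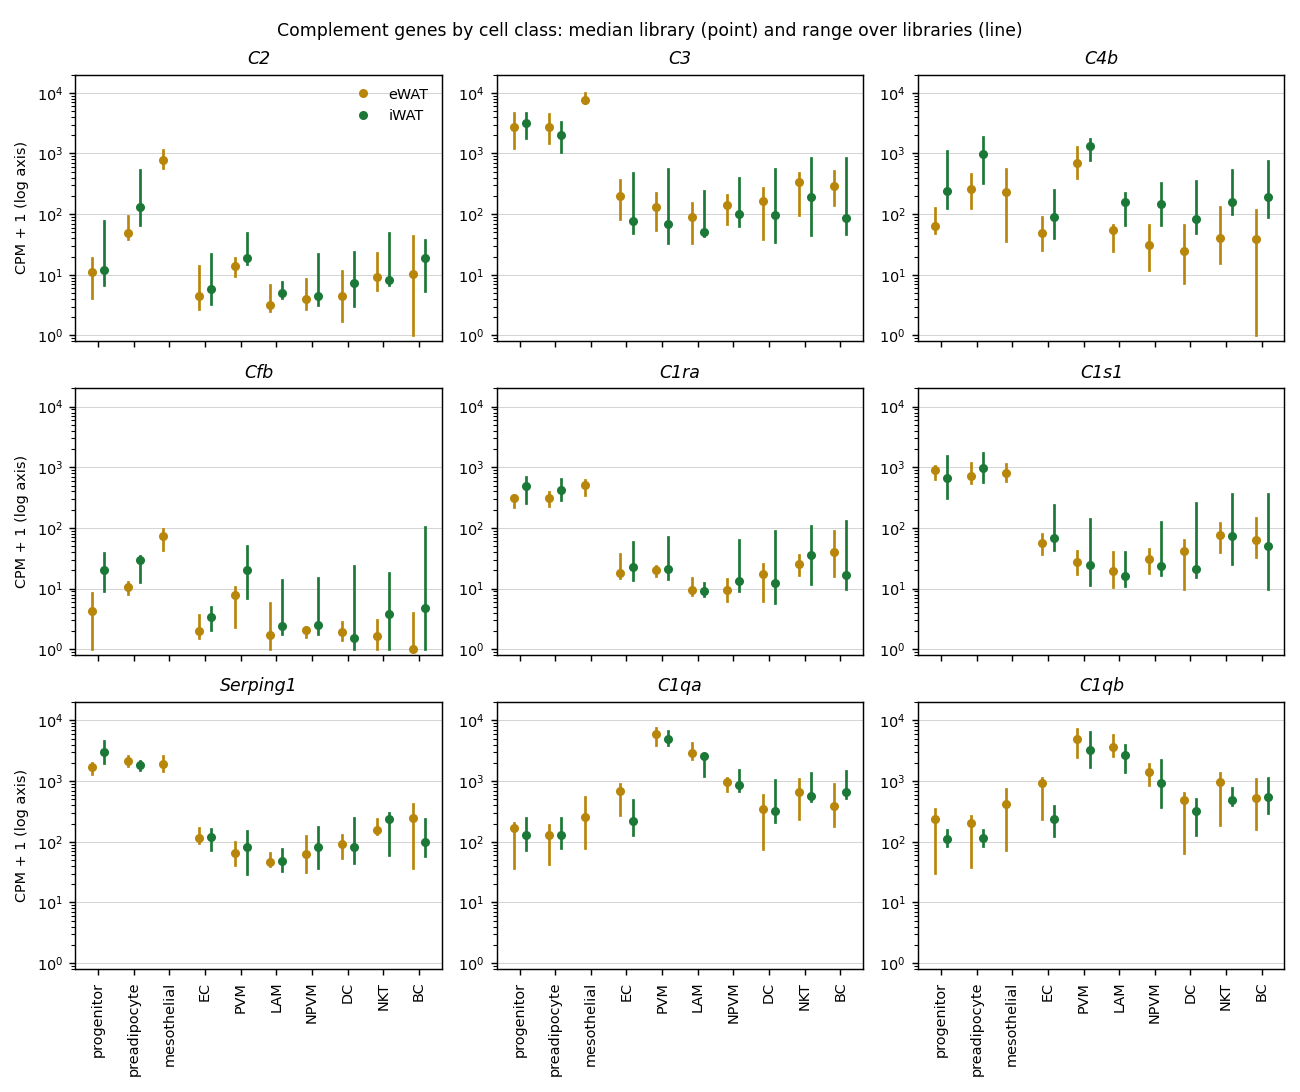
Level of each of the 9 genes in 10 cell classes of eWAT and iWAT; the log axis gives CPM + 1, points are medians and lines the range over the libraries with at least 20 cells of the class. C1qa and C1qb peaked in PVM-like cells, C3 in eWAT reached its highest median of 7507 CPM in mesothelial-like cells, and C4b spanned both macrophage and stromal classes.

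The share of cells with a UMI is given for the class where it was highest. C1qa had at least 1 UMI in 99.6% of eWAT and 97.9% of iWAT PVM-like cells (median library), and C3 in 99.6% of eWAT mesothelial-like and 98.3% of iWAT progenitor-like cells. After each cell was thinned to 700 UMIs these shares were 97.1%, 92.7%, 97.2% and 84.5%. C2 went from 91.7% to 39.0% of eWAT mesothelial-like cells, Cfb from 35.9% to 4.14% and C1ra from 84.4% to 28.4% when thinned. C1s1 went from 93.7% to 50.8% of eWAT progenitor-like cells and C4b from 68.5% to 34.7% of eWAT PVM-like cells. The shares of all these genes thus depend on depth. The class with the highest share was the same with and without thinning in all 18 gene and depot pairs. NKT-like cells, which should make no C1q, held a C1qa UMI in 23.4 to 53.5% of eWAT and 27.3 to 69.9% of iWAT cells (median depth per library 856 to 2272 and 979 to 2393 UMIs). The matching C1qa shares were 21.7 to 63.8% in eWAT progenitor-like cells and 30.5 to 71.3% in iWAT progenitor-like cells (median depth 2254 to 7669 and 2176 to 5200.0 UMIs). Thinned, the C1qa share was 10.8 to 44.3% in eWAT NKT-like cells against 3.02 to 15.6% in eWAT progenitor-like cells, and 10.4 to 52.1% in iWAT NKT-like cells against 5.88 to 28.2% in iWAT progenitor-like cells. The stromal C1q UMIs are therefore not read as expression by stromal cells, and their source was not tested.

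Genes whose log levels ran most nearly parallel over the class sums were chosen by Pearson's r in both depots (68 sums in eWAT and 62 in iWAT, which share libraries and depth), and up to 2 are given for each member as a description. C3 was closest to Aebp1, with r of 0.953 in eWAT and 0.957 in iWAT, and to Dcn (0.950 in eWAT and 0.953 in iWAT), both stromal genes. C1ra was closest to Dcn (0.951 in eWAT and 0.956 in iWAT) and Ccdc80 (0.950 in eWAT and 0.934 in iWAT). C1s1 was closest to Ogn (0.965 in eWAT and 0.945 in iWAT) and Col1a2 (0.943 in eWAT and 0.958 in iWAT). Serping1 was closest to Dcn (0.968 in eWAT and 0.932 in iWAT) and Rarres2 (0.947 in eWAT and 0.937 in iWAT), which encodes chemerin. C1qa ran close to Csf1r (0.955 in eWAT and 0.917 in iWAT), and C1qb to Csf1r (0.921 in eWAT and 0.944 in iWAT) and Lyz2 (0.913 in eWAT and 0.913 in iWAT), both genes on the macrophage marker list. C2 ran close to Chrdl1 (0.845 in eWAT and 0.758 in iWAT), which encodes an antagonist of bone morphogenetic proteins. Cfb was closest to Rnase4 (0.665 in eWAT and 0.705 in iWAT) and Chrdl1 (0.821 in eWAT and 0.645 in iWAT). Like Cfb, C4b, the gene shared by stroma and macrophages, had lower values than the other members. Its closest were Ang (0.735 in eWAT and 0.647 in iWAT) and Kank2 (0.662 in eWAT and 0.646 in iWAT).

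Group differences were tested on sums of raw counts per library in progenitor-like, preadipocyte-like and PVM-like cells, with edgeR's quasi-likelihood test across all genes that passed the filter on low counts and Benjamini-Hochberg adjustment. The ob/ob effect is ob/ob-Veh minus WT-Veh and the Rosi effect ob/ob-Rosi minus ob/ob-Veh, as log2 fold change ± standard error, 2 libraries against 2. The call required an adjusted p no higher than 0.05 and a change of 1.1-fold or more. The ob/ob-Veh libraries enter both effects, so that an ob/ob-Veh value far from the rest enters both with opposite sign. The libraries are labelled biological replicates, and the study's text speaks of them as individual mice. Where leaving out 1 library ended a call, that library is named with the log2 fold change found without it. Other settings are named where they ended a call: scaling by library size alone, cells given a class singly by their own highest marker score instead of by cluster, clustering at resolution 0.5 or 2 instead of 1, complement genes kept for clustering, cells thinned to 700 UMIs, stromal cells with 2 or more macrophage marker UMIs (or PVM-like cells with 2 or more stromal ones) left out, and the unnamed stromal clusters kept, the last chosen after seeing the data. The stromal classes were filled by different clusters: ob/ob-Veh cells came mostly from clusters led by Pi16 and Sema3c, Ptgs2 and Tnfaip6, Sult1e1 and Inmt, and Retnla and Ogt in eWAT and by Gdf10, Ptgs2 and Il1r2, and Gm42418 and Il1r2 in iWAT, whereas WT-Veh and ob/ob-Rosi cells came mostly from clusters led by Sbsn and Pi16, Fos and Mgp, and Mgp and Ndufa4l2 in eWAT and by Sbsn, Mrgprg, Sparcl1, Col4a2 and Mgp in iWAT. An eWAT preadipocyte-like cluster led by Mfap4 was shared, with 189 cells of WT-Veh, 167 of ob/ob-Veh and 198 of ob/ob-Rosi, and an iWAT preadipocyte-like cluster led by Fabp4 and Arxes2, with C3 at 614 and C4b at 140 CPM, held 237 cells of WT-Veh, 1 of ob/ob-Veh and 14 of ob/ob-Rosi. Stromal cells in clusters that met neither name made up 63.7% and 41.2% of WT-Veh, 3.09% and 2.36% of ob/ob-Veh and 64.8% and 21.3% of ob/ob-Rosi stroma in eWAT, and 1.01% to 11.8% in iWAT.

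In eWAT progenitor-like cells 0 of the 8 tested members were called higher in ob/ob-Veh than in WT-Veh (2.11% of all 8009 genes tested) and 2 lower (2.22%), and with rosiglitazone 2 were called higher (1.66%) and 1 lower (1.57%). In eWAT preadipocyte-like cells 0 of 9 were called higher in ob/ob-Veh (5.28% of 12624) and 3 lower (7.08%), and 3 were called higher (8.63%) and 2 lower (6.81%) with rosiglitazone. In eWAT PVM-like cells 0 of 9 were called higher (1.55% of 11226) and 0 lower (2.00%) in ob/ob-Veh. There edgeR gave 4 members an unadjusted p under 0.05 and DESeq2 called 2. The share of all genes meeting either criterion is not given, so nothing is read from these counts. By edgeR 4 to 6 members had an unadjusted p under 0.05 in each comparison of either depot. Rosiglitazone gave 0 calls higher (1.68%) and 1 lower (0.953%) in eWAT PVM-like cells.

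In iWAT progenitor-like cells 2 of 9 were called higher (0.754% of 12729) and 0 lower (0.628%) in ob/ob-Veh, and 0 higher (1.88%) and 3 lower (1.62%) with rosiglitazone. In iWAT preadipocyte-like cells 0 of 9 were called higher (0.504% of 11717) and 0 lower (0.469%) in ob/ob-Veh. There edgeR gave 5 members an unadjusted p under 0.05 and DESeq2 called 2, again with no share of all genes to set beside these counts. With rosiglitazone 0 were called higher (0.555%) and 1 lower (0.819%). In iWAT PVM-like cells 4 of 9 were called higher (3.82% of 12214) and 0 lower (2.06%) in ob/ob-Veh, and 0 higher (5.45%) and 4 lower (5.11%) with rosiglitazone. The median over the 9 members in iWAT PVM-like cells was 1.13 for the ob/ob effect beside 0.01 over all genes, and -1.43 for the Rosi effect beside -0.06. Because the members were chosen with group differences in view, these counts are given as a description and nothing is read from their excess over the background.

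**Figure D2:**
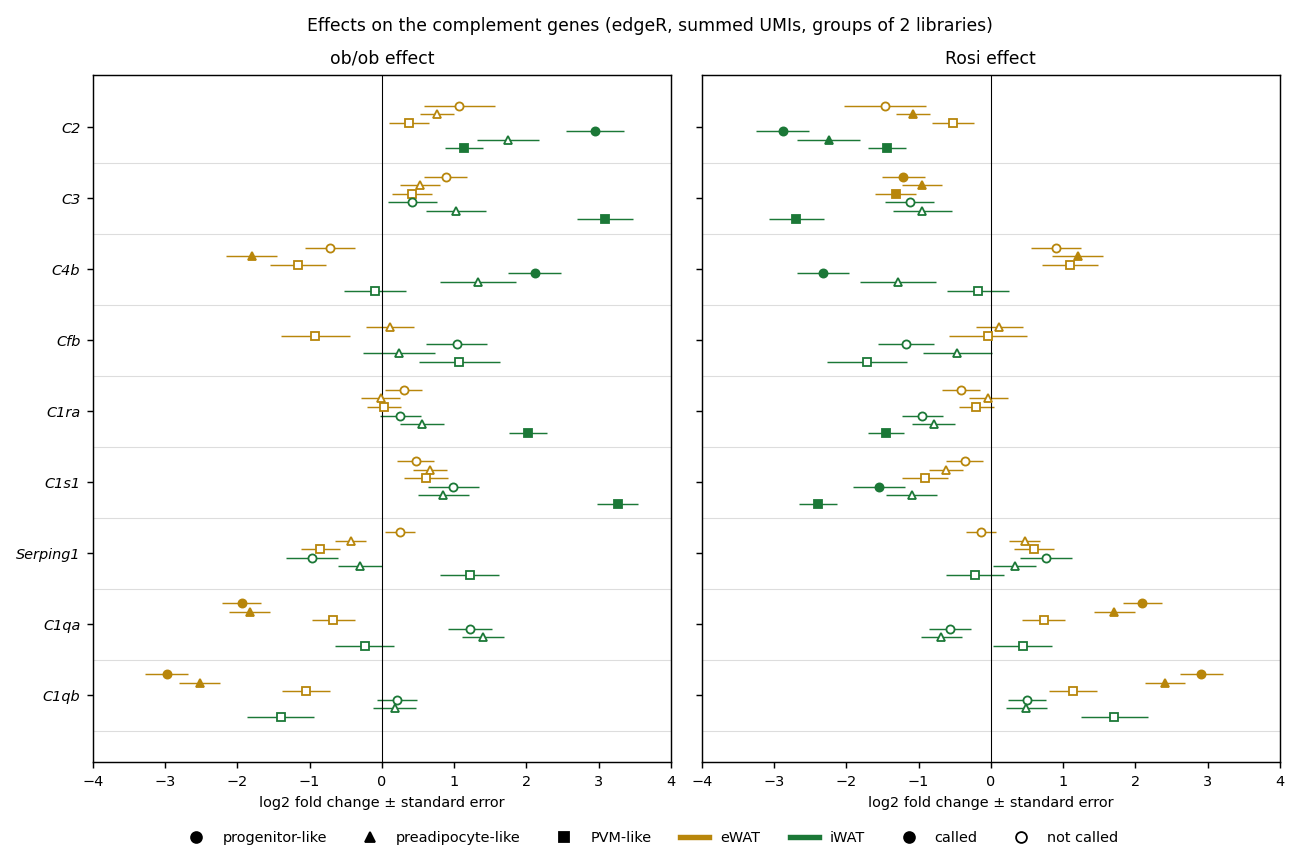
Log2 fold change of each member for the ob/ob effect and the Rosi effect in progenitor-like, preadipocyte-like and PVM-like cells of eWAT and iWAT; points are fitted values, lines ± 1 standard error (2 libraries against 2), and filled points are called genes. C1qb ran from -2.98 ± 0.30 to 2.92 ± 0.30 in eWAT progenitor-like cells, and Cfb has no point there because it did not pass the filter on low counts.

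The recognition chains C1qa and C1qb were lower in ob/ob-Veh PVM-like cells of eWAT without reaching a call. C1qa was at 6087 and 7215 CPM in WT-Veh, 3953 and 5049.8 in ob/ob-Veh and 5974 and 7644 in ob/ob-Rosi in eWAT PVM-like cells. C1qb was at 5543 and 5752 CPM in WT-Veh, 2504 and 3400.1 in ob/ob-Veh and 4433 and 7321 in ob/ob-Rosi. For both chains the ob/ob-Veh libraries lay below all 4 others, with no overlap. The ob/ob effect was -0.67 ± 0.30 (adjusted p = 0.193 by edgeR) for C1qa and -1.05 ± 0.33 (adjusted p = 0.0953 by edgeR) for C1qb, and the Rosi effect 0.73 ± 0.30 (adjusted p = 0.183 by edgeR) and 1.13 ± 0.33 (adjusted p = 0.0900 by edgeR). The summed level of the 10 macrophage markers, all with UMIs, ran the same way, at 17474 to 19493 CPM in WT-Veh, 9611 to 12032 in ob/ob-Veh and 16376 to 21259 in ob/ob-Rosi, and its part in the result was not tested. In the same eWAT libraries LAM-like cells numbered 4931 and 1772 in WT-Veh, 47 and 74 in ob/ob-Veh and 3026 and 3581 in ob/ob-Rosi. The study also found few such cells in ob/ob-Veh by sequencing, and many macrophages in the floating adipocyte layer that this fraction leaves out. By flow cytometry it found fewer lipid-associated macrophages with rosiglitazone. The counts here are therefore of the sequenced fraction, not of the tissue.

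In iWAT PVM-like cells the 2 chains parted. C1qa was at 3906 and 5947 CPM in WT-Veh, 5111 and 4374 in ob/ob-Veh and 4717 and 6717 in ob/ob-Rosi, and the ob/ob-Veh libraries lay within the range of the others. C1qb was at 2809.8 and 5356 CPM in WT-Veh, 1792 and 1723 in ob/ob-Veh and 3789 and 6359.6 in ob/ob-Rosi, and both ob/ob-Veh libraries lay below all 4 others. The effects on C1qb, -1.40 ± 0.46 (adjusted p = 0.107 by edgeR) in ob/ob-Veh and 1.71 ± 0.47 (adjusted p = 0.0525 by edgeR) with rosiglitazone, and on C1qa, -0.23 ± 0.41 (adjusted p = 0.757 by edgeR) and 0.44 ± 0.41 (adjusted p = 0.487 by edgeR), were not called. As a ratio within each library, UMIs of C1qb per UMI of C1qa in iWAT PVM-like cells were 0.719 and 0.901 in WT-Veh, 0.351 and 0.394 in ob/ob-Veh and 0.803 and 0.947 in ob/ob-Rosi. The ratio was lowest in both ob/ob-Veh libraries, and it was also lowest there in eWAT PVM-like cells, at 0.911 and 0.797 in WT-Veh, 0.633 and 0.673 in ob/ob-Veh and 0.742 and 0.958 in ob/ob-Rosi. The same order appeared in iWAT NKT-like cells, at 0.956 and 0.898 in WT-Veh, 0.519 and 0.663 in ob/ob-Veh and 0.930 and 1.08 in ob/ob-Rosi. The ratio was a description chosen after the values were seen and was not tested.

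In eWAT stroma the C1q UMIs fell in ob/ob-Veh and rose with rosiglitazone. C1qa was at 199.8 and 149 CPM in WT-Veh, 36.1 and 54.5 in ob/ob-Veh and 181 and 204 in ob/ob-Rosi in progenitor-like cells and at 187 and 127 in WT-Veh, 42.0 and 57.1 in ob/ob-Veh and 129 and 165 in ob/ob-Rosi in preadipocyte-like cells. C1qb was at 328 and 254 CPM in WT-Veh, 29.4 and 44.9 in ob/ob-Veh and 216 and 348 in ob/ob-Rosi in progenitor-like cells and at 248 and 223 in WT-Veh, 37.2 and 54.6 in ob/ob-Veh and 179 and 262 in ob/ob-Rosi in preadipocyte-like cells. Both ob/ob-Veh libraries lay below all others for each chain and class. The ob/ob effect in progenitor-like cells came to -1.94 ± 0.27 (adjusted p = 0.000878 by edgeR) for C1qa and -2.98 ± 0.30 (adjusted p = 8.63e-05 by edgeR) for C1qb, and the Rosi effect 2.10 ± 0.27 (adjusted p = 0.000647 by edgeR) and 2.92 ± 0.30 (adjusted p = 0.000218 by edgeR). In preadipocyte-like cells the ob/ob effect was -1.83 ± 0.29 (adjusted p = 0.00304 by edgeR) and -2.52 ± 0.28 (adjusted p = 0.000416 by edgeR), and the Rosi effect 1.71 ± 0.29 (adjusted p = 0.00364 by edgeR) and 2.42 ± 0.28 (adjusted p = 0.000452 by edgeR). These 8 calls were kept when any 1 library was left out, and with cells classed singly both C1qa calls in progenitor-like cells were lost.

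The macrophage markers moved with the stromal C1q signal in eWAT. All 10 had UMIs, and their summed level was 1289.8 to 1461 CPM in WT-Veh, 194 to 411 in ob/ob-Veh and 1353 to 1408 in ob/ob-Rosi in progenitor-like cells and 1153 to 1168 CPM in WT-Veh, 219 to 479 in ob/ob-Veh and 985 to 1296 in ob/ob-Rosi in preadipocyte-like cells. UMIs of C1qa per 100 macrophage marker UMIs, 13.7 and 11.5 in WT-Veh, 18.6 and 13.3 in ob/ob-Veh and 12.9 and 15.1 in ob/ob-Rosi in progenitor-like cells, overlapped between the groups. The same ratio for C1qb, 22.5 and 19.7 in WT-Veh, 15.1 and 10.9 in ob/ob-Veh and 15.4 and 25.8 in ob/ob-Rosi, was lower in both ob/ob-Veh libraries than in all others. With stromal cells that held 2 or more macrophage marker UMIs left out, C1qb in preadipocyte-like cells had an ob/ob effect of -2.42 (adjusted p = 0.00179 by edgeR) and a Rosi effect of 2.21 (adjusted p = 0.00417 by edgeR). The cutoff acts on the marker UMIs alone, so the source of the C1q UMIs was not tested by it. C1qa in NKT-like cells of eWAT, at 800.1 and 501 CPM in WT-Veh, 232 and 423 in ob/ob-Veh and 1082 and 883 in ob/ob-Rosi, was likewise lowest in the ob/ob-Veh libraries.

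In iWAT stroma C1qa went the other way without a call. C1qa was at 103 and 71.8 CPM in WT-Veh, 241 and 181 in ob/ob-Veh and 114 and 143 in ob/ob-Rosi in progenitor-like cells and at 82.9 and 78.1 in WT-Veh, 244 and 177 in ob/ob-Veh and 125 and 137 in ob/ob-Rosi in preadipocyte-like cells, with both ob/ob-Veh libraries above all others. Its ob/ob effect was 1.22 ± 0.30 (adjusted p = 0.0994 by edgeR) and 1.40 ± 0.29 (adjusted p = 0.0563 by edgeR), and the Rosi effect -0.57 ± 0.29 (adjusted p = 0.272 by edgeR) and -0.68 ± 0.28 (adjusted p = 0.201 by edgeR). C1qb, at 95.8 and 84.2 CPM in WT-Veh, 123 and 97.4 in ob/ob-Veh and 127 and 155 in ob/ob-Rosi in iWAT progenitor-like cells, had an ob/ob effect of 0.21 ± 0.27 (adjusted p = 0.733 by edgeR), and in preadipocyte-like cells, at 107 and 83.7 in WT-Veh, 124 and 89.2 in ob/ob-Veh and 146 and 153 in ob/ob-Rosi, one of 0.18 ± 0.29 (adjusted p = 0.783 by edgeR). Of the ob/ob-Veh progenitor-like clusters, the one led by Gm42418 and Il1r2, with a median of 1820.5 UMIs per cell, held C1qa at 416 CPM, and the one led by Ptgs2 and Il1r2, with a median of 4754 UMIs, at 148 CPM, against 105 to 128 CPM in the 3 progenitor-like clusters of mostly WT-Veh and ob/ob-Rosi cells. The macrophage markers were at 443 to 455 CPM in WT-Veh, 433 to 523 in ob/ob-Veh and 553 to 719.9 in ob/ob-Rosi in iWAT progenitor-like cells, where WT-Veh and ob/ob-Veh overlapped. The PVM markers, the list of the class with the most C1qa, moved with it: all 8 had UMIs in each library, and their summed level was 129 to 237 CPM in WT-Veh, 509.8 to 549.7 in ob/ob-Veh and 235 to 239 in ob/ob-Rosi in progenitor-like cells and 129.6 to 244 CPM in WT-Veh, 506 to 529 in ob/ob-Veh and 232 to 261 in ob/ob-Rosi in preadipocyte-like cells. C1qa in iWAT NKT-like cells was at 472 and 525 CPM in WT-Veh, 1343 and 611 in ob/ob-Veh and 527 and 712 in ob/ob-Rosi. The same PVM marker levels stand beside the C1ra, C1s1, C4b, C2 and C3 values of these iWAT classes below, and their part in any of these results was not tested.

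C1ra and C1s1, the proteases that C1q activates, were higher in the ob/ob-Veh libraries of iWAT than in the others. In iWAT progenitor-like cells C1s1 was at 803 and 502 CPM in WT-Veh, 1243 and 1509 in ob/ob-Veh and 538 and 309.6 in ob/ob-Rosi, and C1ra at 447 and 519 in WT-Veh, 549.6 and 699 in ob/ob-Veh and 328 and 253 in ob/ob-Rosi. In iWAT preadipocyte-like cells C1s1 was at 1062 and 750.0 CPM in WT-Veh, 1528 and 1728 in ob/ob-Veh and 913 and 581 in ob/ob-Rosi. C1ra was at 399 and 439 in WT-Veh, 578 and 652 in ob/ob-Veh and 407 and 292 in ob/ob-Rosi there, and both genes had both ob/ob-Veh libraries above the 4 others in both iWAT classes. C1s1 fell with rosiglitazone in iWAT progenitor-like cells, with an effect of -1.55 ± 0.35 (adjusted p = 0.0480 by edgeR), and its ob/ob effect there was 0.99 ± 0.35 (adjusted p = 0.223 by edgeR). The C1s1 call was lost without ob/ob-Rosi library 1 (-1.97), ob/ob-Rosi library 2 (-1.22), ob/ob-Veh library 1 (-1.63) or ob/ob-Veh library 2 (-1.48), and also with macrophage-marked cells left out, complement genes kept for clustering, cells classed singly or resolution 0.5. The Rosi effect on C1s1 in iWAT preadipocyte-like cells was -1.097 ± 0.35 (adjusted p = 0.132 by edgeR), and on C1ra it was -0.95 ± 0.29 (adjusted p = 0.100 by edgeR) in progenitor-like and -0.79 ± 0.30 (adjusted p = 0.178 by edgeR) in preadipocyte-like cells.

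In eWAT stroma neither protease was called. C1s1 was at 554 and 728 CPM in WT-Veh, 1171 and 1055 in ob/ob-Veh and 699.6 and 619.9 in ob/ob-Rosi in preadipocyte-like cells, where the ob/ob-Veh libraries again lay above all others. Its effects there were 0.66 ± 0.23 (adjusted p = 0.0862 by edgeR) in ob/ob-Veh and -0.62 ± 0.23 (adjusted p = 0.0927 by edgeR) with rosiglitazone. C1s1 in eWAT progenitor-like cells was at 711 and 822 CPM in WT-Veh, 1050.3 and 1051 in ob/ob-Veh and 999 and 631 in ob/ob-Rosi, with an ob/ob effect of 0.47 ± 0.26 (adjusted p = 0.385 by edgeR). C1ra, at 228 and 393 CPM in WT-Veh, 362 and 306 in ob/ob-Veh and 286 and 311 in ob/ob-Rosi in eWAT preadipocyte-like cells, overlapped between the groups and had an ob/ob effect of -0.02 ± 0.27 (adjusted p = 0.975 by edgeR). C1ra in eWAT progenitor-like cells was at 243 and 321 in WT-Veh, 351 and 337 in ob/ob-Veh and 296 and 219.7 in ob/ob-Rosi, with an ob/ob effect of 0.30 ± 0.26 (adjusted p = 0.607 by edgeR).

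**Figure D3:**
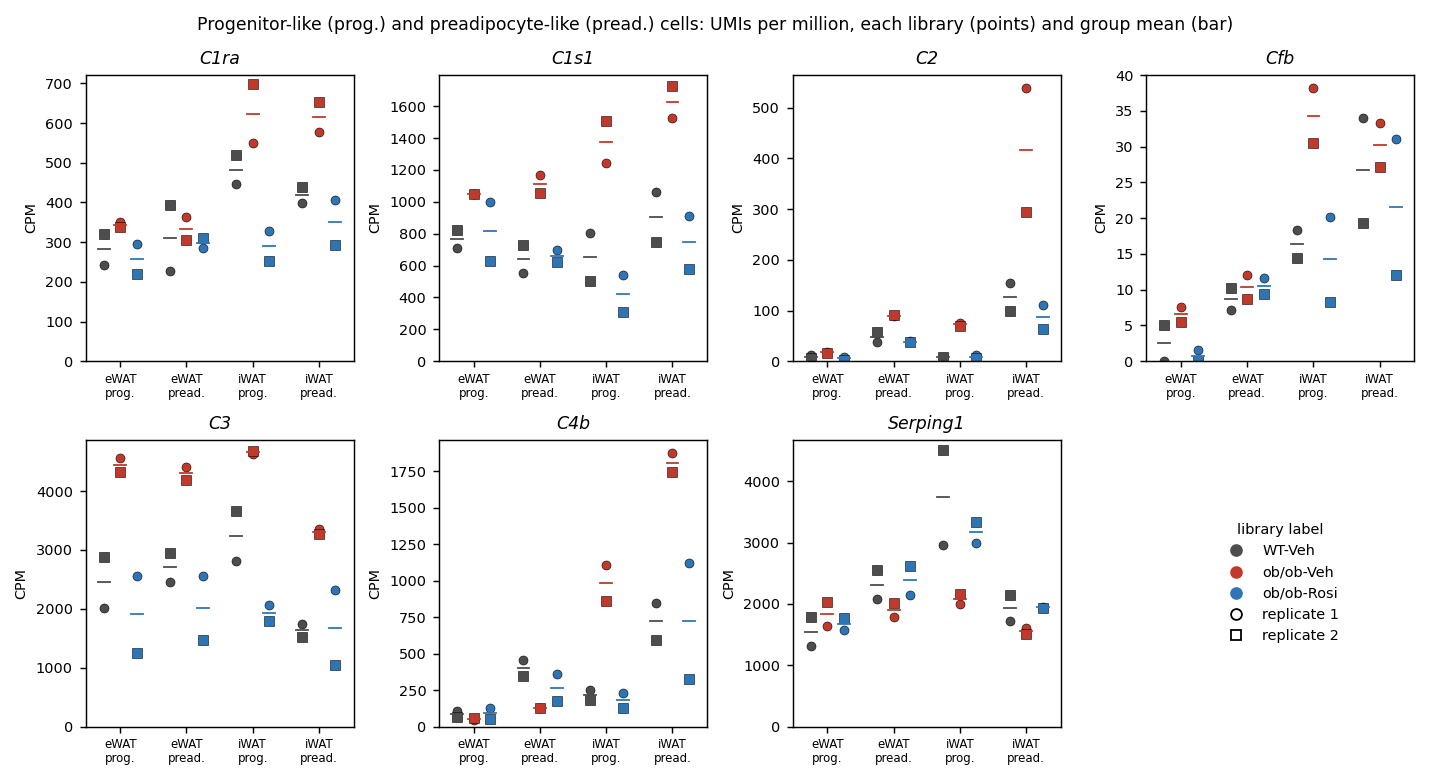
CPM of the 7 stromal members in progenitor-like and preadipocyte-like cells of eWAT and iWAT by library, with 1 point per library and a bar at the group mean of 2 libraries. C2 and C4b in iWAT progenitor-like cells stood highest in the ob/ob-Veh libraries, at 75.6 and 70.2 and 1108 and 862 CPM, whereas C4b in eWAT preadipocyte-like cells was lowest there, at 129.97 and 124 CPM.

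C4b, the substrate of C1s, differed in direction between the depots. In eWAT preadipocyte-like cells C4b was at 454 and 344 CPM in WT-Veh, 129.97 and 124 in ob/ob-Veh and 361 and 172 in ob/ob-Rosi, and both ob/ob-Veh libraries lay below all others. It fell in ob/ob-Veh, with an effect of -1.80 ± 0.36 (adjusted p = 0.00960 by edgeR), and rose with rosiglitazone, by 1.20 ± 0.35 (adjusted p = 0.0413 by edgeR). The ob/ob call was lost without ob/ob-Veh library 2 (-1.71) or WT-Veh library 1 (-1.51), and the Rosi call without ob/ob-Rosi library 1 (0.55), ob/ob-Veh library 1 (1.32) or ob/ob-Veh library 2 (1.102). The Rosi call was also lost with library size alone, cells classed singly, resolution 0.5 or 2, or the unnamed stromal clusters kept. The macrophage markers in these cells, given above, were likewise lowest in ob/ob-Veh, whereas the PVM markers overlapped, at 121 to 197 CPM in WT-Veh, 123 to 166 in ob/ob-Veh and 128 to 150.2 in ob/ob-Rosi. With macrophage-marked cells left out the C4b effects were -1.79 and 1.42 (adjusted p = 0.00328 and 0.0147 by edgeR). C4b in eWAT progenitor-like cells was at 107 and 68.6 CPM in WT-Veh, 47.7 and 55.6 in ob/ob-Veh and 127 and 53.3 in ob/ob-Rosi, where ob/ob-Veh overlapped ob/ob-Rosi, and the effects of -0.72 ± 0.34 (adjusted p = 0.311 by edgeR) and 0.91 ± 0.35 (adjusted p = 0.223 by edgeR) were not called. C4b in eWAT PVM-like cells was at 1090.0 and 832 CPM in WT-Veh, 535 and 387 in ob/ob-Veh and 1284 and 544 in ob/ob-Rosi. ob/ob-Veh was again below WT-Veh and, by a small margin, below ob/ob-Rosi, with effects of -1.16 ± 0.38 (adjusted p = 0.106 by edgeR) and 1.09 ± 0.38 (adjusted p = 0.135 by edgeR).

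C4b in iWAT progenitor-like cells was at 248 and 185 CPM in WT-Veh, 1108 and 862 in ob/ob-Veh and 230.4 and 127 in ob/ob-Rosi, and both ob/ob-Veh libraries lay above all others. It rose in ob/ob-Veh, by 2.11 ± 0.36 (adjusted p = 0.0307 by edgeR), and fell with rosiglitazone, with an effect of -2.33 ± 0.36 (adjusted p = 0.0123 by edgeR). The ob/ob call was lost without ob/ob-Veh library 1 (1.84) or ob/ob-Veh library 2 (2.33), the Rosi call without ob/ob-Rosi library 2 (-1.98), ob/ob-Veh library 1 (-2.07) or ob/ob-Veh library 2 (-2.56), and both with cells classed singly. Over the 6 iWAT libraries PVM-like cells had the highest median C4b level. In both ob/ob-Veh libraries, though, preadipocyte-like cells stood above them, at 1874 and 1742 against 1672 and 1140.1 CPM. The PVM markers in these progenitor-like cells moved with C4b. They were at 129 to 237 CPM in WT-Veh, 509.8 to 549.7 in ob/ob-Veh and 235 to 239 in ob/ob-Rosi. Their part in the result was not tested. With cells holding 2 or more UMIs of the macrophage list left out, the effects were 2.42 and -2.06 (adjusted p = 0.00587 and 0.0121 by edgeR). In iWAT preadipocyte-like cells C4b was at 849 and 595 CPM in WT-Veh, 1874 and 1742 in ob/ob-Veh and 1121 and 324 in ob/ob-Rosi, also highest in ob/ob-Veh, with uncalled effects of 1.33 ± 0.53 (adjusted p = 0.228 by edgeR) and -1.28 ± 0.53 (adjusted p = 0.205 by edgeR). In iWAT PVM-like cells C4b was at 1724 and 975 CPM in WT-Veh, 1672 and 1140.1 in ob/ob-Veh and 1478 and 766 in ob/ob-Rosi, which overlapped between all groups, with an ob/ob effect of -0.10 ± 0.43 (adjusted p = 0.913 by edgeR). The difference between depots was not tested, since the depots were fitted apart.

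C2, the protease subunit of the convertase that C4 anchors, was higher in ob/ob-Veh in both named stromal classes of each depot. C2 in iWAT progenitor-like cells was at 7.05 and 9.06 CPM in WT-Veh, 75.6 and 70.2 in ob/ob-Veh and 12.8 and 5.80 in ob/ob-Rosi, and in iWAT preadipocyte-like cells at 153 and 98.9 in WT-Veh, 539 and 294 in ob/ob-Veh and 110.1 and 64.3 in ob/ob-Rosi. Both ob/ob-Veh libraries lay above all 4 others in both classes. C2 rose in ob/ob-Veh progenitor-like cells, by 2.95 ± 0.41 (adjusted p = 0.0143 by edgeR), and fell with rosiglitazone, with effects of -2.88 ± 0.37 (adjusted p = 0.00532 by edgeR) in progenitor-like and -2.24 ± 0.43 (adjusted p = 0.0437 by edgeR) in preadipocyte-like cells. The ob/ob effect in iWAT preadipocyte-like cells, 1.75 ± 0.43 (adjusted p = 0.0867 by edgeR), was not called. The progenitor-like ob/ob call was lost without ob/ob-Veh library 1 (2.84) or ob/ob-Veh library 2 (3.08) and the Rosi call without ob/ob-Veh library 1 (-2.75) or ob/ob-Veh library 2 (-2.99). The preadipocyte-like Rosi call was lost without ob/ob-Rosi library 1 (-2.74), ob/ob-Rosi library 2 (-1.83), ob/ob-Veh library 1 (-1.69) or ob/ob-Veh library 2 (-2.64), and with complement genes kept for clustering, cells classed singly, or resolution 0.5 or 2.

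In eWAT preadipocyte-like cells C2 was at 38.9 and 56.8 CPM in WT-Veh, 89.4 and 90.7 in ob/ob-Veh and 39.0 and 38.6 in ob/ob-Rosi, with the ob/ob-Veh libraries above all others. It fell with rosiglitazone, with an effect of -1.08 ± 0.24 (adjusted p = 0.0134 by edgeR), and its ob/ob effect was 0.77 ± 0.24 (adjusted p = 0.0570 by edgeR). The call was lost without ob/ob-Rosi library 2 (-1.05), ob/ob-Veh library 1 (-1.01) or ob/ob-Veh library 2 (-1.14), and at -1.07 (adjusted p = 0.106 by edgeR) when stromal cells with 2 or more macrophage marker UMIs were left out. It was lost too with cells classed singly or the unnamed stromal clusters kept. The C2 levels of those clusters overlapped, at 32.7 and 54.0 CPM in WT-Veh, 38.2 and 43.2 in ob/ob-Veh and 59.8 and 34.5 in ob/ob-Rosi. In eWAT progenitor-like cells C2 rested on 5 and 5 UMIs in WT-Veh, 265 and 91 in ob/ob-Veh and 5 and 1 in ob/ob-Rosi, or 11.9 and 6.35 CPM in WT-Veh, 17.7 and 16.8 in ob/ob-Veh and 7.95 and 3.14 in ob/ob-Rosi, and its ob/ob effect of 1.07 ± 0.49 (adjusted p = 0.285 by edgeR) was not called. Mesothelial-like cells had the highest C2 level in eWAT, and mesothelial markers were higher in the same stroma, at 45.5 to 51.6 CPM in WT-Veh, 146 to 163 in ob/ob-Veh and 35.6 to 60.9 in ob/ob-Rosi in preadipocyte-like cells. Their part in the result was not tested.

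C3, on which the pathways converge, was higher in ob/ob-Veh in both named stromal classes of each depot. Within stroma only its Rosi effects in eWAT were called. The unnamed eWAT stromal clusters held C3 at 3498 and 3986 CPM in WT-Veh, 2943 and 2871 in ob/ob-Veh and 4144 and 1427 in ob/ob-Rosi. In those clusters both ob/ob-Veh libraries lay below both WT-Veh libraries. C3 in eWAT progenitor-like cells was at 2015 and 2879.5 CPM in WT-Veh, 4566 and 4326 in ob/ob-Veh and 2559 and 1252 in ob/ob-Rosi, and in preadipocyte-like cells at 2459.9 and 2946 in WT-Veh, 4405 and 4193 in ob/ob-Veh and 2551 and 1472 in ob/ob-Rosi. Both ob/ob-Veh libraries lay above all others in both classes. C3 fell with rosiglitazone, with effects of -1.21 ± 0.30 (adjusted p = 0.0426 by edgeR) in progenitor-like and -0.96 ± 0.28 (adjusted p = 0.0405 by edgeR) in preadipocyte-like cells. Its ob/ob effects, 0.88 ± 0.30 (adjusted p = 0.130 by edgeR) and 0.53 ± 0.27 (adjusted p = 0.217 by edgeR), were not called. The progenitor-like call was lost without ob/ob-Rosi library 2 (-0.78) or ob/ob-Veh library 1 (-1.12) and the preadipocyte-like call without ob/ob-Rosi library 2 (-0.60), ob/ob-Veh library 1 (-0.84), ob/ob-Veh library 2 (-1.06) or WT-Veh library 2 (-0.94). The progenitor-like call was also lost with library size alone, cells classed singly, resolution 0.5 or 2, or thinning, and the preadipocyte-like call with macrophage-marked cells left out, cells classed singly, thinning, or the unnamed stromal clusters kept. Mesothelial-like cells had the highest C3 level in eWAT, and the 8 mesothelial markers moved with C3, at 85.6 to 102 CPM in WT-Veh, 200.3 to 231 in ob/ob-Veh and 53.3 to 66.8 in ob/ob-Rosi in progenitor-like cells, where 6 of them, Msln among these, were at 0 in WT-Veh and ob/ob-Rosi, and at the levels given with C2 in preadipocyte-like cells. The dissociation response genes (Fos, Jun, Egr1 and others) moved with C3 in progenitor-like cells, at summed CPM of 6657 and 7050.1 in WT-Veh, 20566 and 19578 in ob/ob-Veh and 8894 and 3480.3 in ob/ob-Rosi, whereas in preadipocyte-like cells, at 12594 and 10524 in WT-Veh, 10734 and 10840.0 in ob/ob-Veh and 13429 and 5653 in ob/ob-Rosi, the ob/ob-Veh libraries lay within the range of the others. Their part in the result was not tested.

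In iWAT C3 was at 2813 and 3662 CPM in WT-Veh, 4638 and 4689 in ob/ob-Veh and 2061 and 1799.8 in ob/ob-Rosi in progenitor-like cells and at 1741 and 1525 in WT-Veh, 3359 and 3266 in ob/ob-Veh and 2314 and 1049.6 in ob/ob-Rosi in preadipocyte-like cells, and here too the ob/ob-Veh libraries were above all others. None of its effects in iWAT stroma was called. The ob/ob effect was 0.42 ± 0.34 (adjusted p = 0.559 by edgeR) in progenitor-like and 1.02 ± 0.42 (adjusted p = 0.231 by edgeR) in preadipocyte-like cells, and the Rosi effect -1.12 ± 0.34 (adjusted p = 0.101 by edgeR) and -0.95 ± 0.41 (adjusted p = 0.226 by edgeR).

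Cfb, the alternative pathway counterpart of C2, was low and was not called in progenitor-like, preadipocyte-like or PVM-like cells where it was tested; mesothelial-like cells, where it was highest in eWAT, were not tested. In eWAT progenitor-like cells Cfb had 0 and 4 UMIs in WT-Veh, 114 and 30 in ob/ob-Veh and 1 and 0 in ob/ob-Rosi, and it did not pass the filter on low counts. The libraries with 0 UMIs allow up to 7.14 CPM in WT-Veh 1 and 9.41 CPM in ob/ob-Rosi 2 (3 counts, counting error only), beside 7.63 and 5.55 CPM in ob/ob-Veh. In iWAT progenitor-like cells Cfb was at 18.3 and 14.4 CPM in WT-Veh, 38.2 and 30.5 in ob/ob-Veh and 20.2 and 8.28 in ob/ob-Rosi, highest in ob/ob-Veh, with effects of 1.03 ± 0.42 (adjusted p = 0.268 by edgeR) and -1.17 ± 0.39 (adjusted p = 0.121 by edgeR). In the preadipocyte-like cells of both depots the Cfb levels overlapped, at 7.11 and 10.2 CPM in WT-Veh, 12.1 and 8.72 in ob/ob-Veh and 11.6 and 9.45 in ob/ob-Rosi in eWAT and 34.0 and 19.4 in WT-Veh, 33.3 and 27.1 in ob/ob-Veh and 31.0 and 12.0 in ob/ob-Rosi in iWAT. Cfb in iWAT PVM-like cells was at 24.0 and 9.84 CPM in WT-Veh, 50.1 and 25.4 in ob/ob-Veh and 15.1 and 5.95 in ob/ob-Rosi, with an ob/ob effect of 1.07 ± 0.56 (adjusted p = 0.265 by edgeR) and a Rosi effect of -1.72 ± 0.56 (adjusted p = 0.0806 by edgeR).

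Serping1, the inhibitor of the C1 proteases, was the stromal member with lower levels in ob/ob-Veh iWAT. In iWAT progenitor-like cells Serping1 was at 2965 and 4517 CPM in WT-Veh, 1995 and 2164 in ob/ob-Veh and 2995 and 3345 in ob/ob-Rosi, and in preadipocyte-like cells at 1718 and 2149 in WT-Veh, 1615 and 1503 in ob/ob-Veh and 1947 and 1940.4 in ob/ob-Rosi. Both ob/ob-Veh libraries lay below all others in both classes. The effects were not called: the ob/ob effect in progenitor-like cells was -0.96 ± 0.36 (adjusted p = 0.239 by edgeR) and the Rosi effect 0.76 ± 0.36 (adjusted p = 0.236 by edgeR), and in preadipocyte-like cells they were -0.30 ± 0.30 (adjusted p = 0.625 by edgeR) and 0.33 ± 0.30 (adjusted p = 0.552 by edgeR). In eWAT preadipocyte-like cells Serping1 was at 2076 and 2553 CPM in WT-Veh, 1783 and 2011 in ob/ob-Veh and 2141 and 2626 in ob/ob-Rosi, with an ob/ob effect of -0.43 ± 0.21 (adjusted p = 0.199 by edgeR). In eWAT progenitor-like cells, at 1306 and 1787 in WT-Veh, 1640.3 and 2028 in ob/ob-Veh and 1575 and 1767 in ob/ob-Rosi, the groups overlapped and the ob/ob effect was 0.25 ± 0.21 (adjusted p = 0.587 by edgeR).

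Among iWAT PVM-like cells C1s1, C3, C1ra and C2 rose in ob/ob-Veh and fell with rosiglitazone. C1s1, C1ra and C2 started from low levels, each at 20.3 CPM or less in WT-Veh. C1s1 was at 15.2 and 10.4 CPM in WT-Veh, 138 and 133 in ob/ob-Veh and 26.5 and 19.7 in ob/ob-Rosi. C3 was at 32.5 and 66.8 CPM in WT-Veh, 421 and 562 in ob/ob-Veh and 66.9 and 67.6 in ob/ob-Rosi, and C1ra at 13.7 and 13.3 in WT-Veh, 56.3 and 68.7 in ob/ob-Veh and 23.6 and 17.1 in ob/ob-Rosi. C2 was at 15.2 and 20.3 CPM in WT-Veh, 42.6 and 47.2 in ob/ob-Veh and 14.2 and 15.2 in ob/ob-Rosi. All 4 genes had both ob/ob-Veh libraries above all others. The ob/ob effect was 3.26 ± 0.29 (adjusted p = 0.00164 by edgeR) for C1s1, 3.09 ± 0.39 (adjusted p = 0.00508 by edgeR) for C3, 2.03 ± 0.26 (adjusted p = 0.00543 by edgeR) for C1ra and 1.13 ± 0.26 (adjusted p = 0.0453 by edgeR) for C2, and all 4 were called. The Rosi effect was -2.39 ± 0.27 (adjusted p = 0.00634 by edgeR), -2.69 ± 0.38 (adjusted p = 0.0128 by edgeR), -1.45 ± 0.25 (adjusted p = 0.0186 by edgeR) and -1.43 ± 0.26 (adjusted p = 0.0209 by edgeR) in the same order. The C1s1 ob/ob call was kept without any 1 library. The C3 call was lost without ob/ob-Veh library 1 (3.20) or ob/ob-Veh library 2 (2.92), the C1ra call without ob/ob-Veh library 1 (2.07) or ob/ob-Veh library 2 (1.93), and the C2 call without ob/ob-Rosi library 1 (1.13), ob/ob-Rosi library 2 (1.09), ob/ob-Veh library 1 (1.11), ob/ob-Veh library 2 (1.11), WT-Veh library 1 (0.88) or WT-Veh library 2 (1.37). The Rosi call was lost without ob/ob-Rosi library 2 (-2.17), ob/ob-Veh library 1 (-2.26) or ob/ob-Veh library 2 (-2.46) for C1s1, ob/ob-Rosi library 2 (-2.68), ob/ob-Veh library 1 (-2.79) or ob/ob-Veh library 2 (-2.51) for C3, ob/ob-Rosi library 2 (-1.21), ob/ob-Veh library 1 (-1.49) or ob/ob-Veh library 2 (-1.35) for C1ra and ob/ob-Rosi library 1 (-1.34), ob/ob-Rosi library 2 (-1.47), ob/ob-Veh library 1 (-1.40) or ob/ob-Veh library 2 (-1.40) for C2. Both C2 calls were lost at resolution 0.5, and its ob/ob call with cells classed singly.

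The stromal markers moved with these members in iWAT PVM-like cells. All 10 adipocyte progenitor markers had UMIs there, and their summed level was 965 to 1018 CPM in WT-Veh, 6342 to 6977 in ob/ob-Veh and 2199 to 2331 in ob/ob-Rosi. Counted per 100 of those marker UMIs, C3 was at 3.19 and 6.93 in WT-Veh, 6.03 and 8.87 in ob/ob-Veh and 3.04 and 2.90 in ob/ob-Rosi in PVM-like cells, so that the groups overlapped, and at 2.49 and 4.96 in WT-Veh, 5.37 and 6.70 in ob/ob-Veh and 2.91 and 2.24 in ob/ob-Rosi in NKT-like cells of the same libraries. C1s1 per 100 stromal marker UMIs was at 1.49 and 1.08 in WT-Veh, 1.97 and 2.10 in ob/ob-Veh and 1.20 and 0.845 in ob/ob-Rosi in PVM-like cells and 1.36 and 0.905 in WT-Veh, 1.85 and 2.92 in ob/ob-Veh and 1.41 and 0.728 in ob/ob-Rosi in NKT-like cells. C1ra per 100 stromal marker UMIs was at 1.34 and 1.38 in WT-Veh, 0.807 and 1.08 in ob/ob-Veh and 1.07 and 0.734 in ob/ob-Rosi in PVM-like cells. C3 in iWAT NKT-like cells, at 44.7 and 194 CPM in WT-Veh, 674 and 843 in ob/ob-Veh and 190.0 and 159.5 in ob/ob-Rosi, also stood highest in ob/ob-Veh. How much of the change in PVM-like cells came with stromal RNA was not tested, since no ob/ob-Veh library kept 20 PVM-like cells with fewer than 2 stromal marker UMIs.

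**Figure D4:**
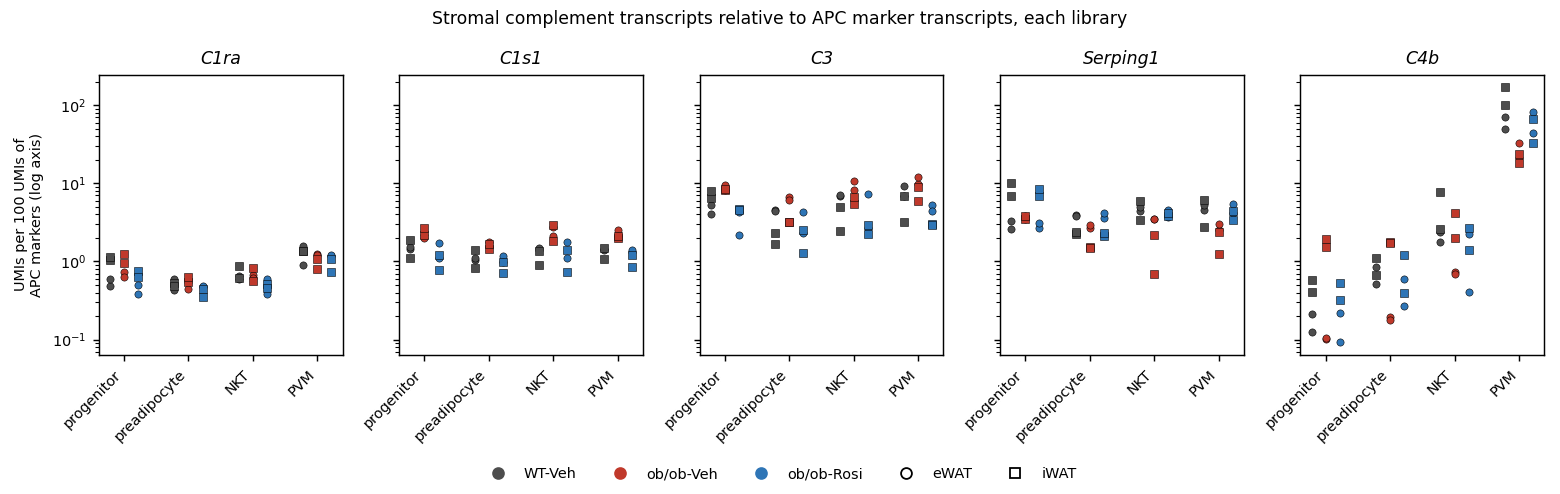
UMIs of C1ra, C1s1, C3, Serping1 and C4b per 100 UMIs of the 10 stromal markers, by library, in progenitor-like, preadipocyte-like, NKT-like and PVM-like cells; the axis is logarithmic. C3 and C1s1 ran at similar ratios in PVM-like and NKT-like cells of iWAT, while C4b in PVM-like cells, at 18.0 to 169 per 100, stood above its ratio in stroma, where the highest library reached 1.95.

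In eWAT PVM-like cells, whose stromal marker level was 1177 to 2182 CPM in WT-Veh, 1610.3 to 1832 in ob/ob-Veh and 1239 to 1587 in ob/ob-Rosi, C3 was at 149.8 and 109 CPM in WT-Veh, 157 and 218 in ob/ob-Veh and 82.9 and 54.5 in ob/ob-Rosi. Both ob/ob-Veh libraries lay above all others, and C3 fell with rosiglitazone, with an effect of -1.32 ± 0.28 (adjusted p = 0.0427 by edgeR), while its ob/ob effect was 0.42 ± 0.27 (adjusted p = 0.370 by edgeR). The call was lost without ob/ob-Rosi library 2 (-1.08), ob/ob-Veh library 1 (-1.53), ob/ob-Veh library 2 (-1.12), WT-Veh library 1 (-1.32) or WT-Veh library 2 (-1.33), and also, at -1.07 (adjusted p = 0.222 by edgeR), when cells with 2 or more stromal marker UMIs were left out. Cells classed singly or resolution 0.5 ended it as well. The mesothelial markers in these cells were at 7.53 to 7.91 CPM in WT-Veh, 26.3 to 29.0 in ob/ob-Veh and 2.57 to 3.72 in ob/ob-Rosi, and their part in the result was not tested. C1s1 in eWAT PVM-like cells was at 31.8 and 16.4 CPM in WT-Veh, 40.9 and 38.8 in ob/ob-Veh and 21.2 and 17.6 in ob/ob-Rosi and C1ra at 19.7 and 18.7 in WT-Veh, 19.9 and 22.4 in ob/ob-Veh and 18.6 and 15.02 in ob/ob-Rosi, and Serping1 was at 98.5 and 61.8 in WT-Veh, 41.0 and 55.4 in ob/ob-Veh and 66.0 and 67.8 in ob/ob-Rosi. None of the 3 was called. C2, at 9.97 and 13.5 CPM in WT-Veh, 15.05 and 17.7 in ob/ob-Veh and 12.0 and 8.58 in ob/ob-Rosi, and Cfb, at 9.36 and 9.78 in WT-Veh, 5.90 and 4.99 in ob/ob-Veh and 7.72 and 1.29 in ob/ob-Rosi, were low in eWAT PVM-like cells and were not called, with ob/ob effects of 0.38 ± 0.27 and -0.92 ± 0.48. Serping1 in iWAT PVM-like cells, at 28.3 and 58.3 CPM in WT-Veh, 85.9 and 149 in ob/ob-Veh and 74.5 and 102 in ob/ob-Rosi, had an ob/ob effect of 1.22 ± 0.41 (adjusted p = 0.113 by edgeR), which was not called either.

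Of 48 other complement genes listed, 47 were in the files. In eWAT PVM-like cells 24 were tested, with 3 called higher (against 1.55% of all genes) and 2 lower (2.00%) in ob/ob-Veh and 3 higher (1.68%) and 3 lower (0.953%) with rosiglitazone. Vsig4, the complement receptor of the immunoglobulin family on tissue macrophages, fell in ob/ob-Veh, with an effect of -3.62 ± 0.25 (adjusted p = 0.000327 by edgeR), and rose with rosiglitazone, by 3.24 ± 0.24 (adjusted p = 0.000393 by edgeR). C6, of the membrane attack complex, also fell (-2.64) and rose with rosiglitazone (2.05), as did the integrin chain gene Itgax with rosiglitazone (2.35). Cfd, the adipocyte protease that activates factor B, rose in ob/ob-Veh and fell with rosiglitazone, from 0 and 2 UMIs in WT-Veh to 145 and 222 in ob/ob-Veh and 0 and 1 in ob/ob-Rosi (adjusted p = 0.000994 and 0.00186 by edgeR). The regulator gene Clu, at 3.00 and -2.70, and the C5a receptor gene C5ar2, at 1.19 and -1.29, went the same way as Cfd. Over all cells of these eWAT libraries the adipocyte gene Adipoq had 118 and 87 UMIs in WT-Veh, 177 and 265 in ob/ob-Veh and 25 and 71 in ob/ob-Rosi. Mesothelial markers in the PVM-like cells, given above, were also highest in ob/ob-Veh. The part of adipocyte or mesothelial RNA in the Cfd, Clu and C5ar2 values was not tested.

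In iWAT PVM-like cells 3 of 25 were called higher (against 3.82% of all genes) and 1 lower (2.06%) in ob/ob-Veh, and 1 higher (5.45%) and 3 lower (5.11%) with rosiglitazone. Vsig4 fell in ob/ob-Veh, with an effect of -2.89 ± 0.35 (adjusted p = 0.00419 by edgeR), and rose with rosiglitazone, by 2.95 ± 0.35 (adjusted p = 0.00756 by edgeR). Cd55, which encodes decay-accelerating factor, rose in ob/ob-Veh (3.39) and fell with rosiglitazone (-4.10). Cfd, at 4.92 and -3.50, did the same, and so did C7, of the membrane attack complex, with 2 and 1 UMIs in WT-Veh, 36 and 46 in ob/ob-Veh and 10 and 5 in ob/ob-Rosi. Stromal markers in these cells did likewise, at 965 to 1018 CPM in WT-Veh, 6342 to 6977 in ob/ob-Veh and 2199 to 2331 in ob/ob-Rosi. Their part in the Cd55, Cfd and C7 values was not tested.

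In eWAT preadipocyte-like cells 0 of 26 other complement genes were called higher (against 5.28% of all genes) and 7 lower (7.08%) in ob/ob-Veh, and 12 higher (8.63%) and 3 lower (6.81%) with rosiglitazone. Hc, which encodes C5, had 2 and 7 UMIs in WT-Veh, 0 and 0 in ob/ob-Veh (limits of 0.290 and 0.267 CPM) and 6 and 15 in ob/ob-Rosi, and was called for both effects (adjusted p = 0.0204 and 0.00763 by edgeR), with no fold change given because ob/ob-Veh was at 0. The others of the 6 largest ob/ob effects were those of Vsig4 (-3.03), the C3a receptor gene C3ar1 (-2.06), C1qc (-1.93), Cd93 (-1.74) and Itgb2 (-1.73), beside the lower macrophage markers given above. With rosiglitazone they were C7 (-2.64), Csmd1 (2.57), Vsig4 (2.50), the collectin gene Colec11 (2.41) and Itgax (2.30).

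In eWAT progenitor-like cells 0 of 11 were called higher (against 2.11% of all genes) and 3 lower (2.22%) in ob/ob-Veh, and 1 higher (1.66%) and 0 lower (1.57%) with rosiglitazone. They were C1qc (-1.60, and 1.90 with rosiglitazone), C3ar1 (-2.43) and Itgb2 (-1.90). The macrophage markers there were at 1289.8 to 1461 CPM in WT-Veh, 194 to 411 in ob/ob-Veh and 1353 to 1408 in ob/ob-Rosi. Their part in these calls was not tested. In iWAT progenitor-like cells 4 of 27 were called higher (against 0.754% of all genes) and 0 lower (0.628%) in ob/ob-Veh, and 0 higher (1.88%) and 4 lower (1.62%) with rosiglitazone. C7 was among them, with 5.37 ± 0.85 (adjusted p = 0.0223 by edgeR) and -3.26 ± 0.66 (adjusted p = 0.0345 by edgeR). The other 3 were C6 (3.18 and -2.46), Itgam (2.90 and -2.03) and Cfp, which encodes properdin (1.85 and -1.64). The PVM markers there were at 129 to 237 CPM in WT-Veh, 509.8 to 549.7 in ob/ob-Veh and 235 to 239 in ob/ob-Rosi. Whether they had a part in these calls was not tested. In iWAT preadipocyte-like cells 0 of 24 were called higher (against 0.504% of all genes) and 0 lower (0.469%) in ob/ob-Veh, and 0 higher (0.555%) and 1 lower (0.819%) with rosiglitazone, the last being Cfp, with an effect of -1.83 ± 0.36 (adjusted p = 0.0437 by edgeR). PVM markers in these cells, given with C1qa, were likewise highest in ob/ob-Veh, and their part was not tested.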

How the data were processed

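Stromal vascular cells were profiled in 12 libraries with 10x Genomics 3' v3.1 chemistry. The authors deposited UMI counts per gene and cell; per the submitters' processing notes these were made with bcl2fastq 2.19.1.403 and Cell Ranger 3.0.2 on mm10. Cells with 700 to 22000 UMIs, 200 to 6000 genes and under 25% mitochondrial UMIs were kept. Each depot was clustered with scanpy 1.11.5 and leidenalg 0.10.2 (2000 variable genes without complement genes, 25 components, 20 neighbours, resolution 1, with 15 components for stroma), and clusters were named from marker lists. Predicted doublets were kept, and removed as an alternative.

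Counts were summed per library and class with at least 20 cells and tested with edgeR 4.0.16 in R 4.3.3 (TMM, filterByExpr, quasi-likelihood F test, 3 residual degrees of freedom, Benjamini-Hochberg). Standard errors are the fold change over the root of F. DESeq2 1.42.0 was an alternative. Depth, 19593940 to 66315901 UMIs per library, limits Cfb and C2 most, and the limits given for a count of 0 cover counting error only. The scripts were tested on simulated data. The members, gene lists and rules were chosen with earlier results of these data known; all 9 members are named in each comparison, other listed complement genes where called (at most 6), and the 2 genes most like each member, of which 1 for C1qa and 1 for C2 are not reported here.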

Additional observations from a re-analysis of the deposited data

Results flagged for a closer look

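In 10 cases the libraries of a member moved in opposite directions in the 2 depots under the same contrast, each time with no overlap between the groups compared; the differences between depots were not tested. Values are the iWAT effect minus the eWAT effect on the log2 scale. For C1qa the ob/ob effects differed by 3.16 in progenitor-like and 3.23 in preadipocyte-like cells, and the Rosi effects by -2.66 and -2.40. For C1qb the ob/ob effects differed by 3.19 in progenitor-like cells, from -2.98 in eWAT and only 0.21 in iWAT. The stromal C1q UMIs behind these values are not read as expression by stromal cells. For C4b the ob/ob effects differed by 2.83 in progenitor-like and 3.13 in preadipocyte-like cells, and the Rosi effects by -2.49 in preadipocyte-like cells. In PVM-like cells the ob/ob effects differed by 1.99 for Cfb and 2.07 for Serping1. The macrophage and PVM markers in stroma and the stromal markers in PVM-like cells, whose levels are given with the members, also differed between the depots, and their part in these differences was not tested. The group order of median UMIs per cell in progenitor-like and PVM-like cells differed too, and its part was not tested.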

How the results depend on the processing

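Values are the number of the 9 members called, with the reported number as stated in the results. An alternative can also change how many of all genes are called. Those shares are not given beside the counts of this section, so a changed count is not read as a result about the members. Of the members called, 2 rose and 3 fell for either effect in eWAT preadipocyte-like cells with library size alone (reported 0 and 3, then 3 and 2), and 2 and 0 for the Rosi effect in eWAT progenitor-like cells (2 and 1). With DESeq2 the Rosi effect had 2 rises and 1 fall in eWAT PVM-like cells (reported 0 and 1), and iWAT PVM-like cells 5 rises and 1 fall for the ob/ob effect (4 and 0) and 1 rise and 5 falls for the Rosi effect (0 and 4). DESeq2 called 2 (ob/ob effect) and 3 (Rosi effect) in eWAT PVM-like cells, 5 for the Rosi effect in iWAT progenitor-like cells, and 2 and 2 in iWAT preadipocyte-like cells. Without a filter on low counts 3 and 4 were called in eWAT PVM-like cells, 5 for the Rosi effect in iWAT progenitor-like cells, 3 and 2 in iWAT preadipocyte-like cells, and 7 for the ob/ob effect in iWAT PVM-like cells. Library size alone, under which the median log2 fold change of all genes reached 0.185 and -0.231 (0.0074 and -0.0572 as reported) in iWAT PVM-like cells, gave 5 for the ob/ob effect in eWAT preadipocyte-like and 1 in iWAT preadipocyte-like cells. All macrophage-like cells in place of PVM-like cells gave 2 and 5 in eWAT. With cells holding markers of the other lineage left out, the Rosi effect had 3 calls in eWAT preadipocyte-like and 0 in eWAT PVM-like cells. With each cell assigned singly 1 and 1 were called in eWAT progenitor-like, 1 and 1 in iWAT progenitor-like, and for the Rosi effect 2 in eWAT preadipocyte-like, 0 in eWAT PVM-like and 0 in iWAT preadipocyte-like cells. For the Rosi effect, resolution 0.5 gave 0 in eWAT PVM-like and 0 in iWAT preadipocyte-like cells, resolution 2 gave 0 and complement genes kept for clustering 0 in iWAT preadipocyte-like cells, and the unnamed stromal clusters kept, an alternative chosen after seeing the data, 2 in eWAT preadipocyte-like cells. The causes were not tested. Thinning to 700 UMIs and removing doublets kept each number within 1.5 times.

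Leaving out each library in turn gave, for the ob/ob effect and the Rosi effect, 2 to 3 and 2 to 3 calls in eWAT progenitor-like, 2 to 4 and 2 to 5 in eWAT preadipocyte-like, 0 to 1 and 0 to 2 in eWAT PVM-like, 0 to 4 and 0 to 6 in iWAT progenitor-like, 0 to 2 and 0 to 2 in iWAT preadipocyte-like, and 1 to 4 and 0 to 6 in iWAT PVM-like cells; where 1 library was left in a group, its spread was taken from the other groups. Over single members, none of the effects called in either fit changed sign, 59 values lost and 28 gained a call with a library left out, and 35 lost and 80 gained one under the other alternatives.

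With the replicate number as a block, 3 and 3 members were called in eWAT progenitor-like, 5 and 6 in eWAT preadipocyte-like, 4 and 5 in eWAT PVM-like (reported 0 and 1), 3 and 4 in iWAT progenitor-like, 3 and 3 in iWAT preadipocyte-like, and 7 and 6 in iWAT PVM-like cells. The share of all genes called with the block is not given, so nothing about the members is read from these counts. The pairs are of different mice, 2 in each comparison, and no label ties a number to a litter or day and the study's methods put the samples in a single batch, so the number was not taken as a pairing. The paired deviations correlated at 0.128 to 0.322 in eWAT, and in iWAT at 0.443 to 0.597 for WT-Veh with ob/ob-Rosi and at -0.0290 to 0.0670 otherwise. Complement genes kept for clustering and cells with other-lineage markers left out gave no value for eWAT progenitor-like cells, nor the latter for iWAT PVM-like cells, where under 20 cells were left in a library.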
